A study of Ovis aries and Bos taurus with 6 samples.

Results

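The miRNAs described here are the 33 cattle rows numbered from miR-2280 to miR-2999, taken by name from the 276 rows of the cow table that carry a bta- name (Bos taurus), among 779 cow rows in all. They comprise 5 rows of miR-2284, 15 rows of miR-2285 and 13 rows with other numbers. None of the 33 shares its row with a second name. Of the 84 sheep rows with an oar- name (Ovis aries), 0 carry a number in this range, so the members are described in the cow libraries. The small RNA came from extracellular vesicles (EVs), membrane particles shed by cells, which were precipitated from the milk of Holstein cows in mid lactation. The 3 cow libraries were set by the study beside 3 libraries from the milk of Ordos fine wool sheep, also in mid lactation. There is 1 cow condition and no treatment, the cow libraries belong to the group's earlier work, and the labels give no sequencing batch and do not say whether they came from separate animals. A precipitation kit takes vesicles of any cell of origin.

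A miRNA is a short RNA that guides the Argonaute proteins to partly matching messenger RNAs, chiefly through the seed near its 5′ end, and lowers their stability or translation. In miRBase, the catalogue of miRNA names, numbers are given in the order in which miRNAs were submitted, so low numbers are mostly conserved miRNAs found early and high numbers are mostly found later by sequencing. A letter after the number marks closely related mature sequences, and a suffix 3p or 5p marks the arm of the hairpin. miR-2284 and miR-2285 are multicopy families known from ruminants, with many loci and near-identical members, so reads may be split among rows by the counting and the value of a single row is uncertain to that extent. What the other members do is little known, and they are grouped here by number only. The mature sequences of the members were not used here, since the cow table lists names and counts alone.

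The cow libraries held 328527, 556489 and 387723 miRNA counts (replicates 1, 2 and 3). Of these, 21.5%, 29.0% and 15.8% fell in rows with a bta- name, and 58.9%, 51.2% and 68.9% fell in a single row without a miRBase name. A count of 0 allows up to 9.13, 5.39 and 7.74 counts per 1000000 miRNA counts (CPM) in the 3 libraries, from a floor of 3 counts. Of 9 miRNAs known from mammary epithelium, 7 had a count in every library, and the list took 0.233%, 0.244% and 0.142% of the miRNA counts. Its most abundant row was miR-148a (600, 1217 and 402 counts), a major miRNA of the lactating gland, and miR-200b had 0, 1 and 0 counts. Red blood cell miRNAs (3 of 3 rows with a count in every library) took 1.98%, 1.53% and 2.76%, leukocyte miRNAs (5 of 6) 0.333%, 0.670% and 0.345%, the liver miRNA miR-122 0.101%, 0.0320% and 0.0637%, and muscle miRNAs (0 of 4) 0.00335%, 0% and 0.00155%. Intervals and floors here take account of counting error alone, because PCR copies of a molecule are counted as separate reads.

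The members were a rare fraction of the cow milk EV miRNAs. They summed to 85 counts in replicate 1, 291 in replicate 2 and 125 in replicate 3. As a share of the miRNA counts this was 0.0259% in replicate 1 (95% Wilson interval 0.0209 to 0.0320), 0.0523% in replicate 2 (0.0466 to 0.0587) and 0.0322% in replicate 3 (0.0271 to 0.0384). The mean was 0.0368% ± 0.0138 (SD, n = 3), while the 243 other bta- rows took 22.0% ± 6.61. Members make up 12.0% of the bta- rows by number. Replicate 2 lay above both other libraries beyond counting error. Most of this excess lay in miR-2285f, miR-2285k and miR-2285n, rows picked out after their values were seen. Without them the share was 0.0247%, 0.0311% and 0.0307% in replicates 1, 2 and 3. Of the bta- rows alone it was then 0.115%, 0.107% and 0.195%, with replicate 2 lowest. For all members, the order of the libraries changed with the total used. As a share of the bta- rows alone the 33 members took 0.121%, 0.180% and 0.204%, which puts replicate 3 highest. Replicate 2 also had the largest share in named rows, in the leukocyte list and, by a small margin over replicate 1, in the mammary epithelium list. The part of any of these in the members' share was not tested.

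Detection was sparse. Of the 33 members, 10 had no count in any library, 14 had counts in 1 library only, 4 in 2 libraries and 5 in all 3. The 5 present in every library were miR-2285bc, miR-2419-5p, miR-2448-3p, miR-2285f and miR-2284ac. Counts of at least 10 in every library were reached by 2 members (6.06%), miR-2285bc and miR-2419-5p, beside 39.1% of the other bta- rows and 19.4% of all rows of the cow table. The 10 members at 0 throughout were miR-2284f, miR-2285af, miR-2285ak-5p, miR-2285cd, miR-2299-3p, miR-2320-3p, miR-2323, miR-2376, miR-2443 and miR-2904, which allows each up to 2.36 CPM over the 3 libraries together. Levels below that limit could be missed at this depth. At 1 count the members seen numbered 12, 13 and 12 in replicates 1, 2 and 3, of which 3, 6 and 5 were seen in that library alone (25%, 46.2% and 41.7%). Of the other bta- rows, 162, 170 and 169 were seen, of which 18, 22 and 25 were seen in that library alone (11.1%, 12.9% and 14.8%).

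**Figure D1:**
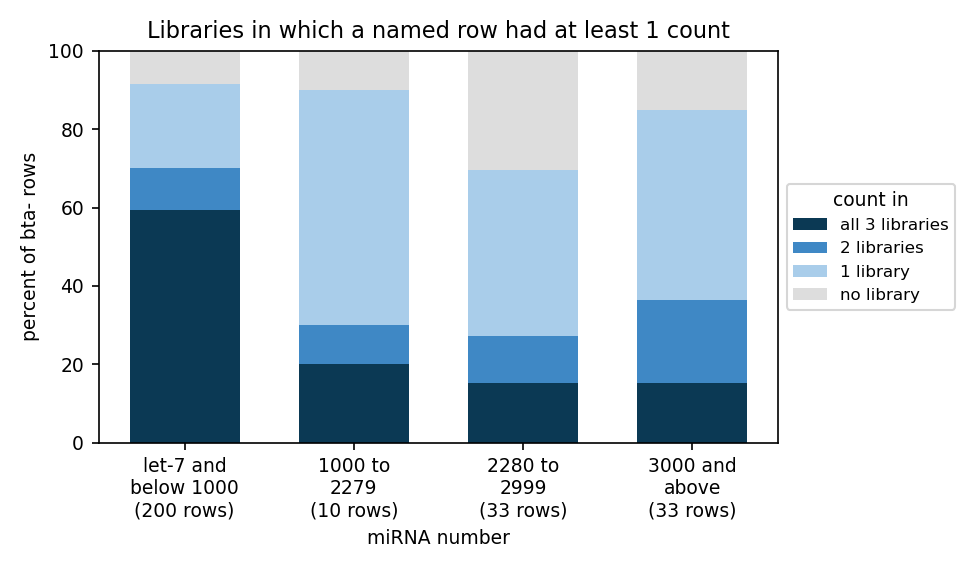
Stacked bars give the percent of bta- rows with at least 1 count in all 3, in 2, in 1 or in none of the cow libraries, by miRNA number (200, 10, 33 and 33 rows). The rows numbered from miR-2280 to miR-2999 had the highest share with no count (30.3%) and, with the rows numbered 3000 and above, 15.2% with counts in every library.

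The other named rows show how this changed with the number. Of the 200 rows of let-7 and numbers below 1000, 59.5% had a count in every library and 8.5% in none. Of the 33 rows numbered 3000 and above, 15.2% had a count in every library, the same share as among the members, and 15.2% had none, against 30.3% of the members. Among the members, no count was found for 1 of 5 miR-2284 rows, 3 of 15 miR-2285 rows and 6 of 13 rows with other numbers. Only 10 rows are numbered 1000 or above but below the members, of which 2 had a count in every library. The median row summed to 4 counts over the 3 libraries among members, 6 among rows numbered 3000 and above and 59.5 in let-7 and numbers below 1000. The most abundant single row summed to 120 counts among the members and to 2509 among the rows numbered 3000 and above.

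Most member counts lay in few rows. miR-2285bc held 24.0% of the 501 member counts, and the 3 members of highest total, miR-2285bc, miR-2419-5p and miR-2285f, held 50.9%. In all, 10 members had at least 10 counts over the 3 libraries, and 13 had 1 to 9. Without miR-2285bc the members took 0.0164%, 0.0428% and 0.0230% of the miRNA counts in replicates 1, 2 and 3, or 0.0274% ± 0.0137 (SD, n = 3).

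**Figure D2:**
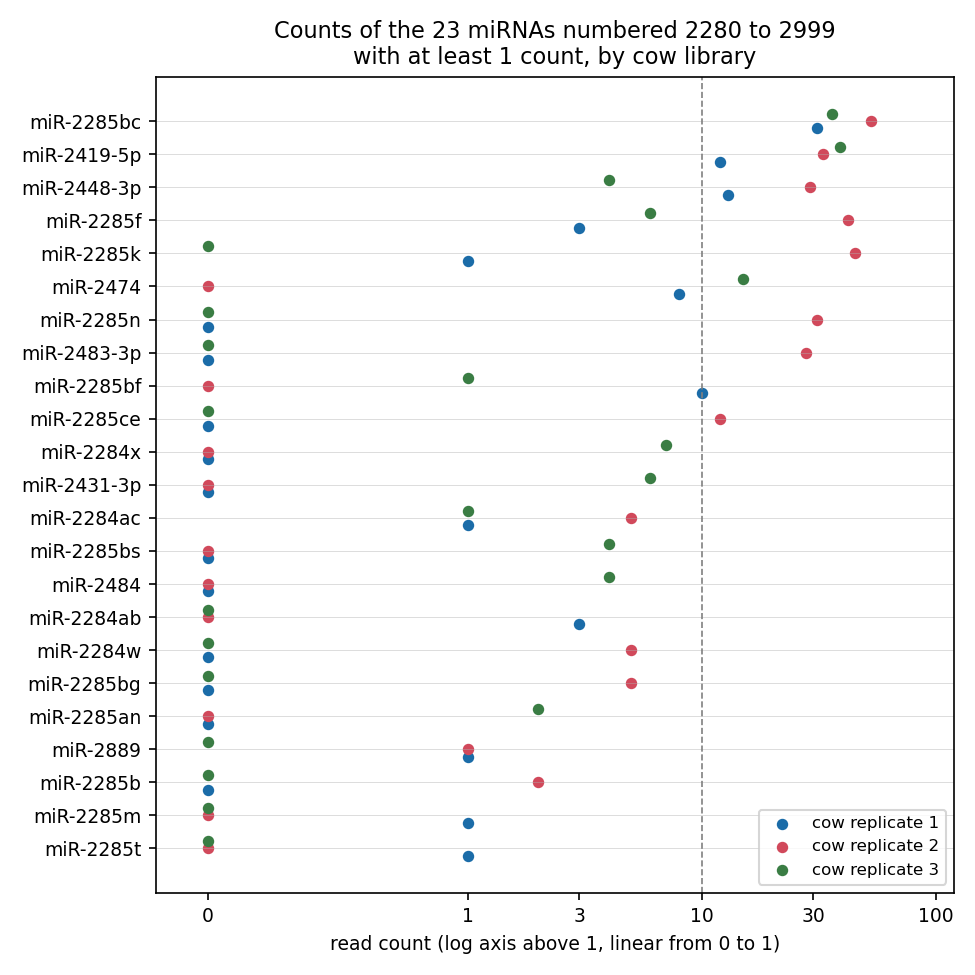
Points give the read count of each of the 23 members with at least 1 count in cow replicates 1, 2 and 3, in order of mean CPM, on an axis that is logarithmic above 1 and linear from 0 to 1; the dashed line marks 10 counts. miR-2285bc lies at 31 to 53 in all 3 libraries, while miR-2285k, miR-2285n and miR-2483-3p lie at 28 or more in replicate 2 and at 0 or 1 in the others.

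miR-2285bc was the most abundant member and the most even. It had 31, 53 and 36 counts in replicates 1, 2 and 3, which is 94.4, 95.2 and 92.8 CPM. The mean was 94.2 CPM ± 1.21 (SD, n = 3), rank 88 among the 276 bta- rows. The highest value was 1.03 times the lowest, with a 95% counting interval of that ratio from 0.659 to 1.61, so that differences up to that size were not detectable at this depth. Counting error alone gives a coefficient of variation near 15.8% at this count, and the observed one was 1.28%. None of the 136 other bta- rows with a mean count of at least 10 had a ratio as low. A row without a miRBase name, at a mean count of 43, was more even, with a ratio of 1.02 and a coefficient of variation of 1.09%. The bta- rows next to it in rank spread more: miR-155, miR-181b and miR-223 just above had ratios of 3.57, 3.77 and 11.8, and miR-375 and miR-15b just below had 4.95 and 2.36. miR-345-5p, also just below, had 21, 112 and 0 counts, a ratio of at least 26.0. Here and below, a ratio or fold given as at least sets the 0 to the floor of 3 counts. It takes the higher count as observed and so is not a 95% bound. Among the 96 rows of the cow table with a mean count of at least 100, the pattern over the 3 libraries was most like that of miR-25 (1108, 1098 and 1057 CPM), then miR-140 (262, 284 and 222 CPM) and miR-103 (466, 377 and 438 CPM), at distances of 0.031, 0.23 and 0.24 on the log2 scale. The differences of miR-2285bc lie below counting error, so likeness to it picks out even rows and shows no shared change. Likeness over 3 libraries is a description of these libraries only.

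Other miR-2285 rows were concentrated in replicate 2. miR-2285f had 3, 42 and 6 counts in replicates 1, 2 and 3, or 9.13, 75.5 and 15.5 CPM, and replicate 2 was 8.26 times replicate 1 (95% counting interval 2.64 to 41.7). miR-2285k had 1, 45 and 0 counts, and replicate 2 was at least 10.5-fold higher than replicate 3. miR-2285n had 0, 31 and 0 counts, at least 6.10-fold higher in replicate 2 than in replicate 1. Together these 3 rows gave 62.1% of the miR-2285 counts of replicate 2 (118 counts), against 8.51% (4 counts) and 12.2% (6 counts) in replicates 1 and 3. Without replicate 2 the mean level of miR-2285f was 12.3 CPM instead of 33.4, that of miR-2285k 1.52 instead of 28.0, and miR-2285n was at 0 in both remaining libraries.

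Among the remaining miR-2285 rows, miR-2285bf had 10, 0 and 1 counts, at least 5.65-fold higher in replicate 1 than in replicate 2, and its mean of 11.0 CPM became 1.29 without replicate 1. miR-2285ce had 0, 12 and 0 counts, at least 2.36-fold higher in replicate 2 than in replicate 1, and was at 0 without replicate 2. The rest, named after their values were seen, stayed at or below 5 counts in any library. miR-2285bg had 5 counts and miR-2285b 2, all in replicate 2. miR-2285bs had 4 and miR-2285an 2, all in replicate 3. miR-2285m and miR-2285t had 1 count each, in replicate 1. As a family, miR-2285 summed to 143, 341 and 126 CPM, and 48.7, 246 and 33.5 CPM without miR-2285bc, with replicate 2 highest either way. Both sums keep miR-2285f, miR-2285k and miR-2285n, which held 118 of the 137 counts of replicate 2 outside miR-2285bc. The excess of replicate 2 is thus mostly that of these rows and not of the family at large.

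The miR-2284 rows were rarer, and the rows with a count differed between libraries. The rows were named after their values were seen, as none reached 10 counts in a library. miR-2284ac, with 1, 5 and 1 counts, was present in all 3 libraries. miR-2284ab had 3 counts in replicate 1 only, miR-2284w 5 in replicate 2 only and miR-2284x 7 in replicate 3 only. The family sum was more even than its rows, at 4, 10 and 8 counts or 12.2, 18.0 and 20.6 CPM, a highest over lowest of 1.69. At these counts the order of the libraries is within counting error. Among these rows miR-2284x alone had counting intervals apart between libraries. For miR-2284ab and miR-2284w the intervals overlapped, but at 3 and 5 counts this rule can miss a difference, so it decides nothing about their zeros.

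**Figure D3:**
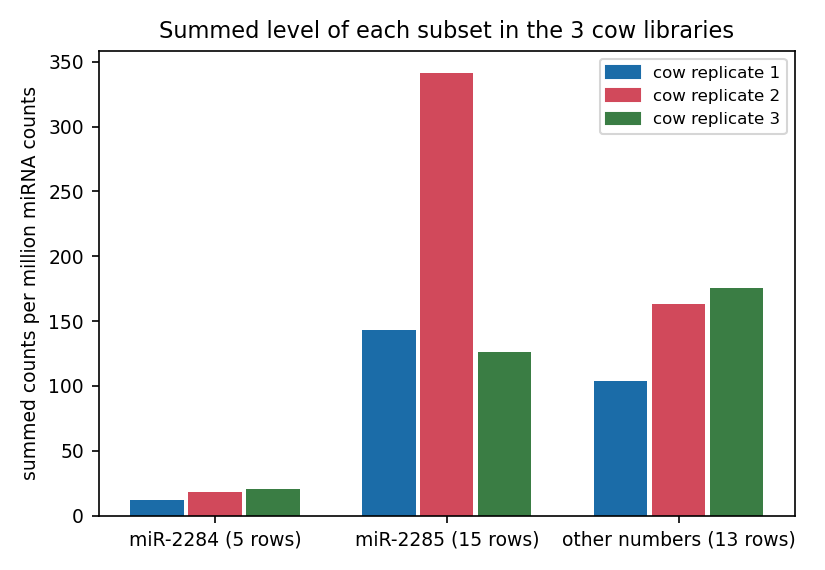
Bars give the summed CPM of the miR-2284 rows (5), the miR-2285 rows (15) and the rows with other numbers (13) in cow replicates 1, 2 and 3, each bar a single library with no error. miR-2285 reaches 341 CPM in replicate 2 against 143 and 126, while miR-2284 and the other numbers differ by 1.69 times between their highest and lowest library.

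Of the 13 members with other numbers, 7 had a count. miR-2419-5p, a 5′ arm product, had 12, 33 and 39 counts, or 36.5, 59.3 and 101 CPM. Replicate 3 was 2.75 times replicate 1 (95% counting interval 1.41 to 5.78). miR-2448-3p, a 3′ arm product, had 13, 29 and 4 counts, or 39.6, 52.1 and 10.3 CPM, with replicate 2 at 5.05 times replicate 3 (1.77 to 19.8). Both were thus seen in every library, but with different libraries highest. miR-2474 had 8, 0 and 15 counts and was at least 7.18-fold higher in replicate 3 than in replicate 2. Its mean of 21.0 CPM became 12.2 without replicate 3. miR-2483-3p had 0, 28 and 0 counts, at least 5.51-fold higher in replicate 2 than in replicate 1, and was at 0 without replicate 2. miR-2431-3p had 6 counts and miR-2484 had 4, all in replicate 3, and miR-2889 had 1, 1 and 0 (these 3 named after their values were seen). The 13 rows summed to 103, 164 and 175 CPM, so replicate 2 did not stand apart here as it did in miR-2285.

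Agreement between libraries was low for the members as for other rows of like abundance. Of the 6 members with a mean count of at least 10 (miR-2285bc, miR-2419-5p, miR-2448-3p, miR-2285f, miR-2285k and miR-2285n), 5 had a highest CPM more than 2 times the lowest, beside 77.2% of the 136 other bta- rows and 81.2% of all 271 cow rows with such a mean. miR-2285f, miR-2285k and miR-2285n reached that mean through replicate 2 alone, so the filter itself fixed a high ratio for them, and their part of this count says nothing more. With 13, 29 and 4 counts, miR-2448-3p also fell below that mean without replicate 2, so it too entered through its highest library. In the 46 other bta- rows with a mean count in the range of these 6 (10.3 to 40), to which the same filter applies, 91.3% were past that fold. The ratio takes the extremes of 3 libraries, so it tends to fall when a library is left out. The mean count filter was then applied again, so the rows compared changed as well. Past the fold were 5 of 7 members and 57.4% of the other bta- rows without replicate 1. Without replicate 2 these were 1 of 3 and 43.8%, and without replicate 3 they were 4 of 7 and 50.7%. The biological coefficient of variation (BCV), edgeR's estimate of the spread beyond counting error, had a median of 1.25 in the 6 members, 0.836 in the 136 other bta- rows and 1.21 in the 46 of like abundance. It ran from 0.858 in miR-2285bc to 2.20 in miR-2285n. edgeR draws each row towards the trend over all rows, which is why miR-2285bc is given a BCV far above its own spread.

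**Figure D4:**
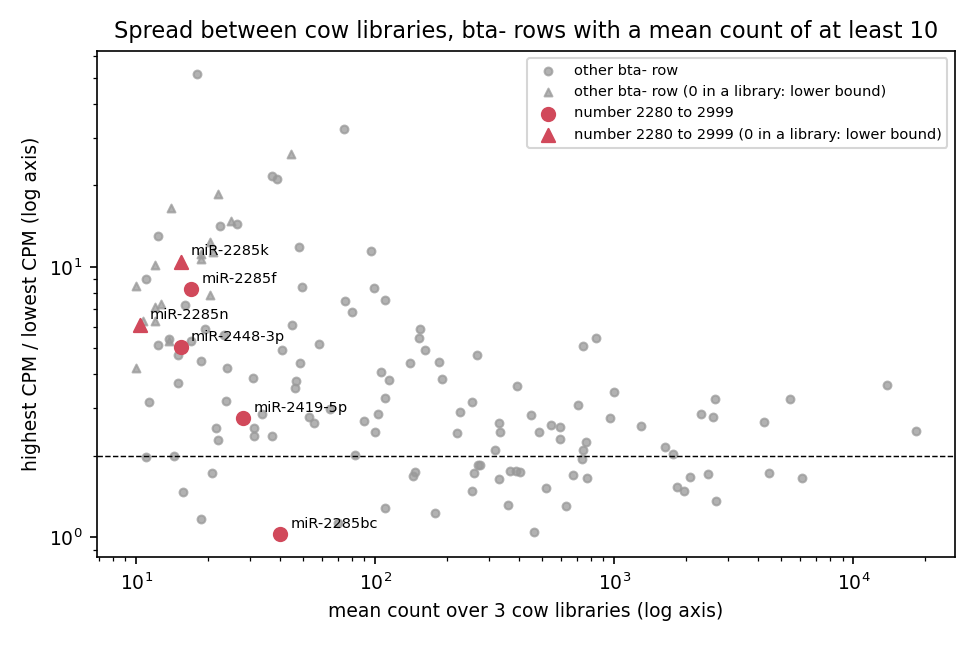
Each point is a bta- row with a mean count of at least 10. It is placed by its mean count and by its highest CPM over its lowest among the 3 cow libraries (both axes logarithmic). Triangles are rows with a count of 0 in a library, where the ratio uses the floor and the higher count as observed. The dashed line marks 2. miR-2285bc lies at 1.03, and the other 5 members lie between 2.75 and 10.5 among grey points of the same mean count.

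Some members differed between libraries by more than counting error. Of the 23 members with a count, 10 had 95% exact Poisson intervals that did not overlap between at least 1 pair of libraries, beside 73.6% of the 220 other bta- rows with a count and 62.6% of 637 such cow rows. They were miR-2284x and the members with at least 10 counts in all other than miR-2285bc. This rule was set after the values were seen, and it takes counts to pass it. Among rows with 11 to 120 counts in all, 9 of 10 members, 84.4% of 77 other bta- rows and 86.1% of 166 rows without a miRBase name passed. Without replicate 2 the count of members fell to 2 of 17 with a count, beside 56.6% of the other bta- rows, and without replicate 3 it was 6 of 18, beside 54.9%.

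In that range of 11 to 120 counts the members and the other bta- rows had similar medians, 38.5 and 37 counts. A library at 0 was found in 6 of 10 members and in 50.6% of the 77 other bta- rows. Counts in a single library were found in 3 of 10 and 23.4%. The part of a row's summed CPM in its highest library had a median of 83.8% in the members and 67.4% in the other bta- rows. In rows without a miRBase name it was 83.4%. The highest CPM was in replicate 2 for 7 of 10 members and for 42.9% of the other bta- rows. However, miR-2285f, miR-2285k, miR-2285n, miR-2483-3p and miR-2285ce reached 11 counts through replicate 2 alone, and miR-2285bf through replicate 1. The range itself thus bears on their zeros and highest library, as it does for any other row that entered through a single library. None of these shares was tested, and 10 rows with related sequences among them are few.

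Over all 33 rows, each pair of libraries had few members in common. Replicates 1 and 2 shared 7 members with a count, 58.3% of those in replicate 1 and 53.8% of those in replicate 2. Replicates 1 and 3 also shared 7, 58.3% of each. Replicates 2 and 3 shared 5, which is 38.5% and 41.7%. Among the 243 other bta- rows the shared part was 78.7% to 84.6% of a library's list. Spearman's rho of the counts across the 33 members was 0.39, 0.47 and 0.17 for these 3 pairs, and 0.84, 0.79 and 0.79 across the 243 other bta- rows. The rows of a pair share their libraries and are not independent replicates, most members are at 0 in either library, and the other rows span a far wider range of counts, so these values are descriptions.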

How the data were processed

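EVs were precipitated with a kit, RNA was taken up on columns and an Illumina small RNA kit with ligated adapters was used, per the labels' protocols. The submitters' processing notes name cutadapt 1.14 and Bowtie. A build, a miRBase release and a counter were not given in the sources used here. Deposited count tables hold whole reads per miRNA row. Adapter ligation and PCR favour some RNAs. The deposited TPM values are 1000000 times the count over 1 constant per library (12427878 to 13095531 in cow), without length correction, and served as an alternative. The treatment field of the cow libraries names sheep, while title, organism and breed name cattle, which were followed.

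Members were found by the number in the name. CPM is the count per 1000000 counts of all cow rows. Ratios with a count of 0 use a floor of 3 counts per library and the higher count as observed, so they are not interval bounds. Intervals are 95% Wilson (shares), exact Poisson (CPM) or exact conditional binomial (ratios). BCV is the square root of edgeR 4.0.16 tagwise dispersion (TMM factors, intercept only, rows with a mean count of at least 10), with DESeq2 1.42.0 as an alternative. The BCV step was tested on simulated counts of known BCV. No test between groups was run, as the members occur in 1 group. Likeness is the Euclidean distance of centred log2(CPM + 0.5). Members named are the 10 of highest mean share, those with at least 10 counts in every library, miR-2284 and miR-2285 rows with at least 10 in any, and the 3 of largest ratio, which together are 10 rows; others were named after their values were seen. Members, lists and rules were chosen with earlier results of these data known. Marker lists for 5 sources of RNA were read by name. The sheep table served for its names only. Python 3.11.15 was used for the rest.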

Additional observations from a re-analysis of the deposited data

How the results depend on the processing

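The share of counts in members (0.0368% of all miRNA counts) was 0.168% of the bta- rows, 0.0913% without the largest row in the total, and 0.00132% of 1000000 deposited TPM. The last value has an unlike denominator, since the deposited TPM divides by a constant of 12427878 to 13095531 per library and not by the miRNA counts. As a share of all miRNA counts, the members ran from 0.0291% to 0.0423% with 1 library left out. Outside miR-2285bc the share was 0.0274%, 0.123% of the bta- rows, and 0.0197% to 0.0329% with 1 library left out. Members with a count in every library numbered 2 at a minimum of 10 or 5, 5 at a minimum of 1, and 2 with libraries thinned to 328527 counts, beside 39.1%, 44.4%, 51.9% and 38.3% of the other bta- rows. They numbered 2 to 3 with 1 library left out. Members with a count in any library fell from 23 to between 17 and 20. Members past a 2-fold difference between libraries numbered 5 with TMM factors, DESeq2 size factors or a fold of 1.5, 4 at a fold of 3, 7 of 8 at a mean count of at least 5, 4 of 5 with a count in every library as the only filter, and 1 to 5 with 1 library left out. Of the other bta- rows, 74.3% were past it with either set of factors, 91.9% at a fold of 1.5, 51.5% at a fold of 3, 78.9% at a mean count of at least 5, 73.8% with that only filter and 43.8% to 57.4% with 1 library left out. Members with counting intervals apart were 10 of 23 with all libraries, beside 73.6% of the other bta- rows. They were 8 of 20 without replicate 1, 2 of 17 without replicate 2 and 6 of 18 without replicate 3. The other bta- rows had 58.4%, 56.6% and 54.9% in these 3 settings. No member has a mean count of 50, so that filter gave no value. The median BCV of members was 1.53 with DESeq2, 1.21 without TMM factors, 1.68 at a mean count of at least 5, 0.944 to 1.60 with 1 library left out and, chosen after seeing the data, 0.777 without shrinkage. The other bta- rows had 0.789, 0.824, 0.931, 0.662 to 0.992 and 0.528 in these settings. Those rows were not matched to the members for abundance here. The comparison with sheep rows by sequence was not run, as member sequences were not used here. No paired analysis was possible because the members have values in the cow libraries alone and no result comes from a test. Depth limits every member: 1 count is 1.80 to 3.04 CPM.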
